A study of Mus musculus with 2 samples.

Results

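Transport and conversion of lactate in kidney cells rest on a small set of genes, of which 6 are described here out of the 32285 genes in the count files. They were chosen by name: *Slc16a1*, *Slc16a3* and *Slc16a7*, which encode the monocarboxylate carriers MCT1, MCT4 and MCT2; *Bsg*, which encodes basigin; and *Ldha* and *Ldhb*, which encode the lactate dehydrogenase subunits. Expression was measured by single-cell RNA sequencing (Chromium 3′ chemistry) of mouse kidneys collected on day 14 after 25 minutes of unilateral clamping of the renal artery. The study asked how loss of the HIF prolyl hydroxylases in endothelium after ischemia alters repair. One library came from a Cre- mouse and 1 from a PHDTiEC mouse, which carries Cdh5-CreERT2, a tamoxifen-inducible Cre under the endothelial Cdh5 promoter, with the alleles Phd1f/f, Phd2f/f and Phd3f/f. The animals were adult males, the Cre- mouse was a littermate, and tamoxifen was given after the injury as 4 injections of 3 mg per mouse. With 1 library per genotype, no difference between them has a replicate check, and no p-value is given.

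Lactate crosses the cell membrane together with a proton through the monocarboxylate carriers. MCT4 is known for lactate export from glycolytic cells and its gene is a target of hypoxia-inducible factor (HIF), whereas MCT1 and MCT2 have a higher affinity for lactate and also serve uptake. Basigin is the chaperone that brings MCT1 and MCT4 to the plasma membrane. LDHA favours the reduction of pyruvate to lactate and LDHB favours the reverse reaction. In the healthy kidney the proximal tubule takes up lactate and makes glucose from it. Messenger RNA counts show neither carrier activity nor the direction of lactate flow.

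Because HIF binds a short DNA motif, the bases upstream of 3 transcription starts are printed: the carrier gene and the dehydrogenase gene that were higher in endothelial-like cells of the library labelled PHDTiEC, and the dehydrogenase gene that was lower. The sequences are those of RefSeq on GRCm38.p6, run 5′ to 3′ on the gene's strand and end at the base before the start, with the core letters of the hypoxia response element, ACGTG or GCGTG on either strand, in capitals. *Slc16a3* lies at chr11:120948480-120960868 on the plus strand, and the stretch shown, chr11:120948817-120949066, lies within the annotated gene because another transcript starts further upstream. *Ldha* lies at chr7:46841475-46855627 on the plus strand, and the first of its 2 RefSeq promoters is shown, chr7:46845554-46845803. *Ldhb* lies at chr6:142490249-142507957 on the minus strand, and the stretch shown is chr6:142507958-142508207.
Slc16a3: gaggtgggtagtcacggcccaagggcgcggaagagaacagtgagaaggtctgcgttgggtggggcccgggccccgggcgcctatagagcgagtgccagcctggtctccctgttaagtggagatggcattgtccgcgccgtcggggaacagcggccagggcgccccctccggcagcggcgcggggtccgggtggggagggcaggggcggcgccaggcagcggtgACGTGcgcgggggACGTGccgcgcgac
Ldha: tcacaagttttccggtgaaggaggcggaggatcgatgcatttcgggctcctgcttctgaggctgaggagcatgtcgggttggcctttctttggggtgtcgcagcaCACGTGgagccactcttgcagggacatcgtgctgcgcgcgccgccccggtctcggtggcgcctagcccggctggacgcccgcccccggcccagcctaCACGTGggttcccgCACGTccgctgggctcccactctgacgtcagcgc
Ldhb: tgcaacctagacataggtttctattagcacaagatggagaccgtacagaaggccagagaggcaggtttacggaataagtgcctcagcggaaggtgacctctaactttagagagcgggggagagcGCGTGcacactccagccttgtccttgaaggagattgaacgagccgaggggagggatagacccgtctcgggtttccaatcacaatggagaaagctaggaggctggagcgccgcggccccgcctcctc

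In the full RefSeq promoter windows, which run from 250 bases before to 50 bases after the start, *Slc16a3* held 2 matches, both ACGTG on the gene's strand, the nearer one ending 10 bases before the start. *Ldha* held 7 matches in its first window and 2 in its second. The palindrome CACGTG counts once on each strand, and it accounts for 4 of the 7. *Ldhb* held 1 match. *Slc16a1*, at chr3:104638668-104658462, held 5 matches. A window for 4 of the 6 genes was in the table, and *Slc16a7* (chr10:125219270-125389465) and *Bsg* (chr10:79704491-79711969) are named without one. Of 32851 promoter windows of the same length, 43.8% held either motif, 19.6% held ACGTG and 8.93% held 3 or more matches. A match describes the letters in a window and does not show a bound site.

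The 2 libraries held 136004367 and 146758812 unique molecular identifiers (UMIs, each 1 captured molecule). Barcodes with 500 to 100000 UMIs, at least 200 genes and a mitochondrial share of at most 50% were kept, 8548 for Cre- and 9309 for the library labelled PHDTiEC, with 7500 and 7898 UMIs per barcode in the median. The libraries shared 28 of these barcodes. The cells formed 31 clusters, made without the 6 genes and the gene lists used below, and 24 clusters were named "-like" after marker genes. UMIs were summed over each class and divided by the class total, giving counts per 1000000 UMIs (CPM). Levels are described in 26 classes with at least 30 cells in each library, 3 of them endothelial-like, and leave out a pair of unnamed clusters of shallow barcodes (medians of 807 and 729 UMIs in one and 1225.5 and 1050 in the other). Pairs of values are given with the Cre- library first. Intervals are exact 95% intervals and cover counting error only, not differences between mice, dissociations or libraries.

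The endothelial-like cells numbered 403 and 538. They fell into mREC-like cells (arterial and medullary markers such as *Sox17* and *Jam2*, 205 and 263 cells), cREC-like cells (capillary markers such as *Gpihbp1* and *Plvap*, 110 and 179 cells) and a cluster that combined endothelial with mural markers such as *Rgs5* (88 and 96 cells). The last was deeper, with medians of 22833 and 20014 UMIs, against 5292 and 7412 in mREC-like and 5129 and 4100 in cREC-like cells. Whether it holds merged barcodes of endothelial and mural cells was not tested. The marker lists also overlapped between the other clusters. *Igfbp3*, on the capillary list, was a leading gene of mREC-like cells, in which 3 of 4 capillary markers were enriched. *Ehd3*, a glomerular endothelial marker, was a leading gene of cREC-like cells, in which 2 of 4 such markers were enriched. All 9 general endothelial markers were seen in each cluster and library, summing to between 3552 and 7309 CPM. The floxed genes were not lower in the library labelled PHDTiEC. *Egln1*, which encodes PHD2, was at 68.1 and 192 CPM in endothelial-like cells against 43.4 and 45.9 CPM in all other cells. *Egln3*, which encodes PHD3, was at 24.7 and 153 CPM, and *Egln2*, which encodes PHD1, at 36.7 and 39.6 CPM. Counts per gene do not show whether an exon is missing, so these values do not check the recombination and the genotype is taken from the label.

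Each carrier gene marked a different part of the kidney. *Slc16a3* was highest in myeloid cells, *Slc16a1* in proximal tubule-like (PT-like) cells and *Slc16a7* in the distal nephron. *Bsg* and *Ldha* were detected in every class, and *Ldhb* was concentrated in tubular epithelium. Neighbouring classes in the order of levels are said to differ only where both libraries put one above the other with intervals that do not overlap and the lower library of one exceeds the higher library of the next.

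*Slc16a3* stood at 533 CPM (493 to 575) and 492 CPM (455 to 531) in neutrophil-like cells. These values exceeded those of the next class, monocyte-like cells, with 182 CPM (159 to 206) and 143 CPM (120 to 170), which in turn exceeded the remaining classes. The macrophage-like classes covered a wide range. The Gpnmb, Arg1 class held 71.9 and 54.2 CPM, cycling macrophage-like cells 43.0 and 35.2 CPM, the Lyz1, Itgax class 36.1 and 27.4 CPM, and the Ccl8, Mrc1 class 6.69 and 4.81 CPM. The most numerous macrophage-like class, Ccl8, Mrc1, with 1393 and 1470 cells, was thus the lowest of them in both libraries. In tubular classes *Slc16a3* lay between 0.909 and 8.17 CPM, below the 15.8 and 15.4 CPM in the barcodes with under 100 UMIs, which hold ambient RNA. Below the 2 leading classes no neighbours in the order could be told apart. Neutrophil-like cells held 32.5% and 29.2% of all *Slc16a3* UMIs although their median depth was only 1768 and 1770 UMIs per cell. After each cell was thinned to 2000 UMIs, 46.0% and 44.1% of neutrophil-like cells had a *Slc16a3* UMI, against 0.468% and 0.336% of PT-like cells.

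*Slc16a1* was highest in PT-like cells, at 43.1 CPM (39.2 to 47.3) and 30.5 CPM (27.6 to 33.6), above every other class in both libraries. PT-like cells held 48.4% and 44.9% of all *Slc16a1* UMIs. Fibroblast-like cells followed with 20.1 and 11.02 CPM, cluster 19, an unnamed cluster led by *Foxd1* and *Wnt16*, with 12.8 and 13.8 CPM, and injured PT-like cells with 15.5 and 9.32 CPM. These 3 could not be told apart from one another. The remaining segments of the nephron lay at or below 3.68 CPM, and DCT-like (distal convoluted tubule) cells at 0.519 and 0.676 CPM had the lowest mean of the libraries among classes with a UMI in both, although IC-like cells (0.572 CPM) and IC-like cells with CD markers (0.648 CPM) lay lower in the library labelled PHDTiEC. In podocyte-like cells 0 UMIs were counted, which at 30 and 62 shallow cells allows up to 54.2 and 23.4 CPM.

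*Slc16a7* showed the reverse pattern along the nephron. DCT-like cells held 212 CPM (202 to 222) and 241 CPM (231 to 252), above every other class. Intercalated (IC-like) cells followed at 118 and 128 CPM and IC-like cells with collecting duct (CD) markers at 117 and 120 CPM, and these 2 did not differ. The class with CD markers, in which 7 of 7 CD markers were enriched, was deep. Its medians were 48338.5 and 52239.5 UMIs, against 12699 and 12067 in IC-like cells. Whether it holds merged barcodes was not tested. CD-like cells at 99.8 and 106 CPM and thick ascending limb (TAL-like) cells at 79.4 and 62.4 CPM each stood apart from the class after them.  PT-like cells were at 3.85 and 2.66 CPM and mREC-like cells at 2.26 and 3.03 CPM. After thinning, a *Slc16a7* UMI was found in 33.1% and 33.6% of DCT-like cells and in 0.937% and 0.336% of PT-like cells.

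*Bsg* varied by about 10.1 times between classes, with the mean of both libraries highest in IC-like cells (698 and 659 CPM) and lowest in B-like cells (55.1 and 78.7 CPM). Tubular, fibroblast-like and pericyte-like classes lay between 289 and 698 CPM together with podocyte-like cells, and the myeloid and lymphoid classes at or below 262 CPM. In neutrophil-like cells, the class with the highest *Slc16a3* level, *Bsg* stood at only 146 and 145 CPM.

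**Figure D1:**
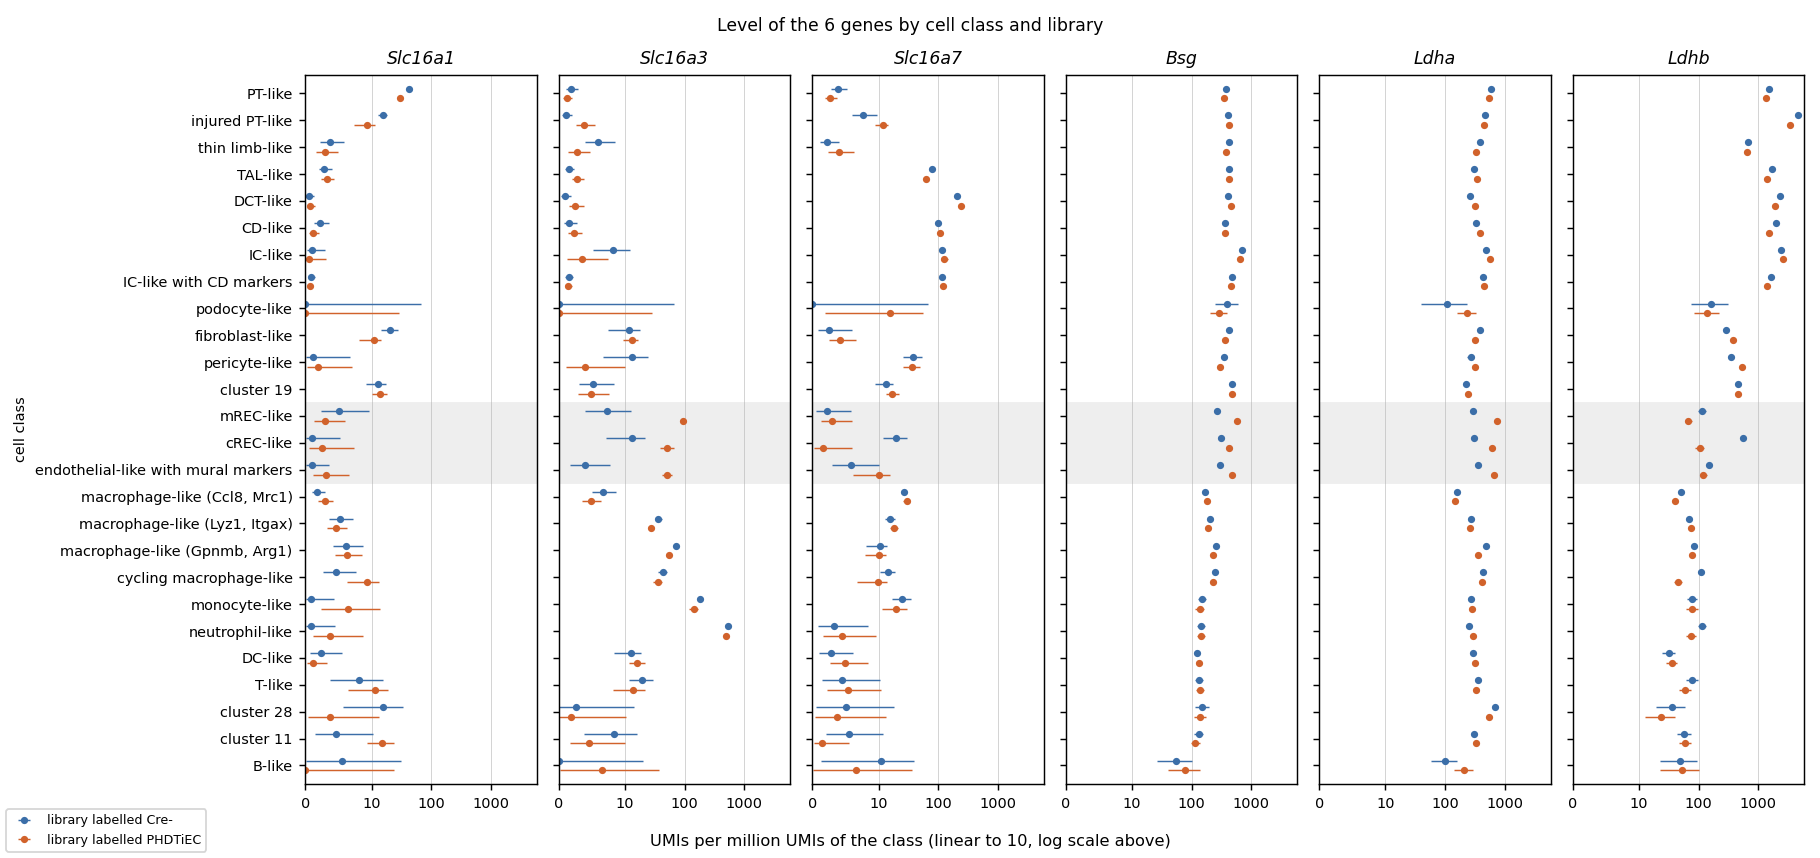
Level of each of the 6 genes in 26 cell classes, in CPM of the class (x axis, linear to 10 and logarithmic above), in the Cre- library (blue) and the library labelled PHDTiEC (orange), with exact 95% counting intervals and the endothelial-like clusters shaded. Most pairs of points overlap or lie close together, whereas *Slc16a3* in the 3 endothelial-like clusters moves from between 3.88 and 13.03 to between 50.7 and 94.7.

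The dehydrogenase subunits had different distributions. *Ldha* was the most even of the 6 genes, with 4.09 times between the highest and lowest class means and no neighbours that could be told apart. PT-like cells held 582 and 538 CPM and cluster 28, a small cycling cluster with *Cd8b1* and *Gzmb*, 695 and 548 CPM, while Ccl8, Mrc1 macrophage-like cells held 157 and 147 CPM. *Ldhb* spanned 136 times. Injured PT-like cells, marked by *Havcr1* and *Krt20*, stood at 4642 CPM (4597 to 4688) and 3477 CPM (3437 to 3517), above all other classes in both libraries. IC-like cells followed at 2386 and 2611 CPM, DCT-like cells at 2306 and 1919 CPM, and PT-like cells at 1544 and 1353 CPM. Dendritic (DC-like) cells at 31.7 and 35.5 CPM and cluster 28 at 35.8 and 23.8 CPM were the lowest.

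The share of *Ldhb* among the UMIs of both dehydrogenase genes needs no class total. It was 90.9% and 88.7% in injured PT-like cells, 89.7% and 85.9% in DCT-like cells, 85.1% and 80.4% in TAL-like cells and 72.6% and 71.6% in PT-like cells. It was 9.74% and 10.2% in DC-like cells and 4.90% and 4.17% in cluster 28. The macrophage-like classes and T-like cells lay between 9.67% and 24.6%. Tubular epithelium was thus the *Ldhb*-rich compartment in both libraries and immune cells the *Ldha*-rich one.

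**Figure D2:**
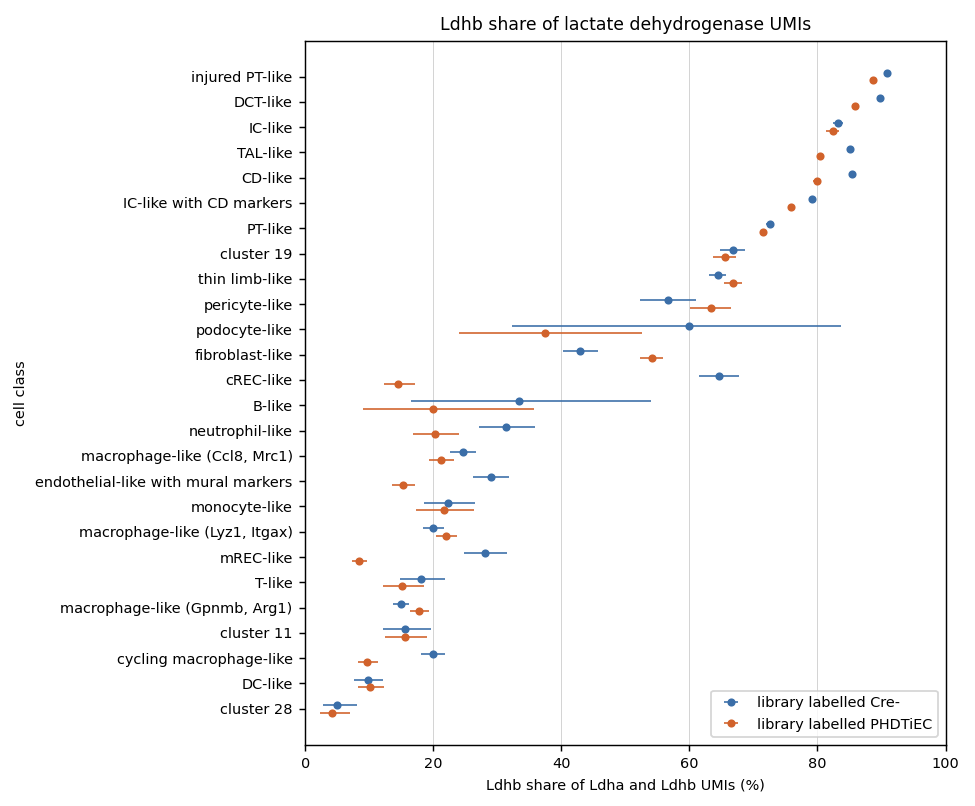
Share of *Ldhb* in the UMIs of *Ldha* and *Ldhb* together (x axis, percent) by cell class, ordered by the mean of the libraries, with exact binomial 95% intervals for the Cre- library (blue) and the library labelled PHDTiEC (orange). Tubular classes lie at or above 64.4% and immune classes at or below 33.3%, and the widest gap between the libraries is that of cREC-like cells, 64.6% and 14.5%.

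In endothelial-like cells *Slc16a3*, *Ldha* and *Bsg* were higher in the library labelled PHDTiEC. *Slc16a3* was counted with 35 and 411 UMIs, 7.13 CPM (4.97 to 9.92) and 70.8 CPM (64.1 to 78.0), a log2 ratio of 3.31 (2.81 to 3.85). The Cre- level lay below the 15.8 CPM of the barcodes with under 100 UMIs in that library, so the size of this ratio rests on a low base. *Ldha* stood at 325 CPM (310 to 342) and 690 CPM (668 to 711), a log2 ratio of 1.08 (1.00 to 1.17), and *Bsg* at 291 CPM (276 to 306) and 517 CPM (499 to 536), a log2 ratio of 0.83 (0.74 to 0.92). The carriers that also serve uptake were rare. *Slc16a1* was counted with 12 and 17 UMIs (log2 ratio 0.26, -0.89 to 1.46) and *Slc16a7* with 37 and 30 UMIs (log2 ratio -0.55, -1.29 to 0.19), and both intervals hold 0. Of the 6 genes, 2, *Slc16a3* and *Ldha*, were past 2-fold higher, against 3.05% of the 13749 genes with at least 10 UMIs. With classes from marker UMIs alone *Ldha* was at 0.86, under 2-fold. *Ldhb*, described below, was past 2-fold lower, against 4.12% of genes.

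The *Slc16a3* difference was present in each endothelial-like cluster. In mREC-like cells it stood at 7.34 CPM (3.91 to 12.5) and 94.7 CPM (83.4 to 107), in cREC-like cells at 13.03 CPM (7.12 to 21.9) and 51.0 CPM (39.0 to 65.5), and in the cluster with mural markers at 3.88 CPM (1.68 to 7.65) and 50.7 CPM (41.3 to 61.7). The log2 ratios were 3.69 (2.89 to 4.62), 1.97 (1.11 to 2.92) and 3.71 (2.67 to 4.96). With 94.7 CPM, mREC-like cells of the library labelled PHDTiEC lay between the monocyte-like cells and the Gpnmb, Arg1 macrophage-like cells of the same library (143 and 54.2 CPM). The cell with most *Slc16a3* UMIs held 8.57% and 2.92% of the pooled count, so no single cell made the difference. The defining neutrophil markers, which could bring *Slc16a3* UMIs from another cell type, summed to 140 and 51.1 CPM in the pooled endothelial-like cells, monocyte markers to 449 and 334 CPM and macrophage markers to 479 and 545 CPM, with every marker of the 3 lists seen. Neutrophil and monocyte markers were therefore lower, and macrophage markers slightly higher, in the library with more *Slc16a3*. In cREC-like cells alone macrophage markers stood at 684 and 1183 CPM. Their part in the difference was not tested.

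More cells had a *Slc16a3* UMI as well. The share was 6.95% and 28.1% of endothelial-like cells at median depths of 7963 and 7364.5 UMIs. Thinned to 2000 UMIs, which left out 54 and 65 shallower cells, it was 1.43% (0.467 to 3.31) and 9.51% (7.02 to 12.5), against 0.468% and 0.336% of PT-like cells. Among the thinned cells of the library labelled PHDTiEC, the 45 with a *Slc16a3* UMI held 2.73 *Ldha* and 2.11 *Bsg* UMIs per cell in the mean, and the 428 without one held 1.09 and 0.843. In mREC-like cells alone the corresponding values were 3.23 and 2.73 in 22 cells and 1.12 and 0.847 in 202 cells. In the cluster with mural markers the gap was small, 1.38 *Ldha* UMIs in 8 cells with and 1.23 in 88 cells without. In the Cre- library, where 5 endothelial-like cells had a *Slc16a3* UMI, these held 0.4 *Ldha* and 0.4 *Bsg* UMIs against 0.547 and 0.628 in the 344 others. Cells of 1 library are not replicates, and these means are a description.

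*Ldha* and *Bsg* were higher in each cluster too. *Ldha* stood at 296 and 741 CPM in mREC-like cells (log2 ratio 1.32, 1.18 to 1.47), at 302 and 614 CPM in cREC-like cells (1.03, 0.84 to 1.22) and at 363 and 667 CPM in the cluster with mural markers (0.88, 0.75 to 1.01). *Bsg* stood at 263 and 586 CPM (1.15, 1.00 to 1.31), 308 and 431 CPM (0.48, 0.28 to 0.69) and 306 and 479 CPM (0.65, 0.50 to 0.79) in the same order. The *Bsg* intervals of mREC-like and cREC-like cells do not overlap, and nor do those of *Slc16a3* in level between these clusters in the library labelled PHDTiEC. Over the alternative settings the *Bsg* log2 ratio ran from 0.51 to 1.18 in mREC-like and from 0.42 to 1.07 in cREC-like cells. That of *Slc16a3* ran from 2.47 to 4.13 and from 1.77 to 3.59. These ranges overlap, so a stable gap between the clusters was not shown. Past 2-fold higher were 3 of the 6 genes in mREC-like cells (4.54% of genes) and none lower (3.7%). In cREC-like cells 2 of 5 genes with enough UMIs were higher (4.37%) and 2 lower (8.1%), and in the cluster with mural markers 1 of 5 was higher (4.01%) and 0 lower (4.38%).

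**Figure D3:**
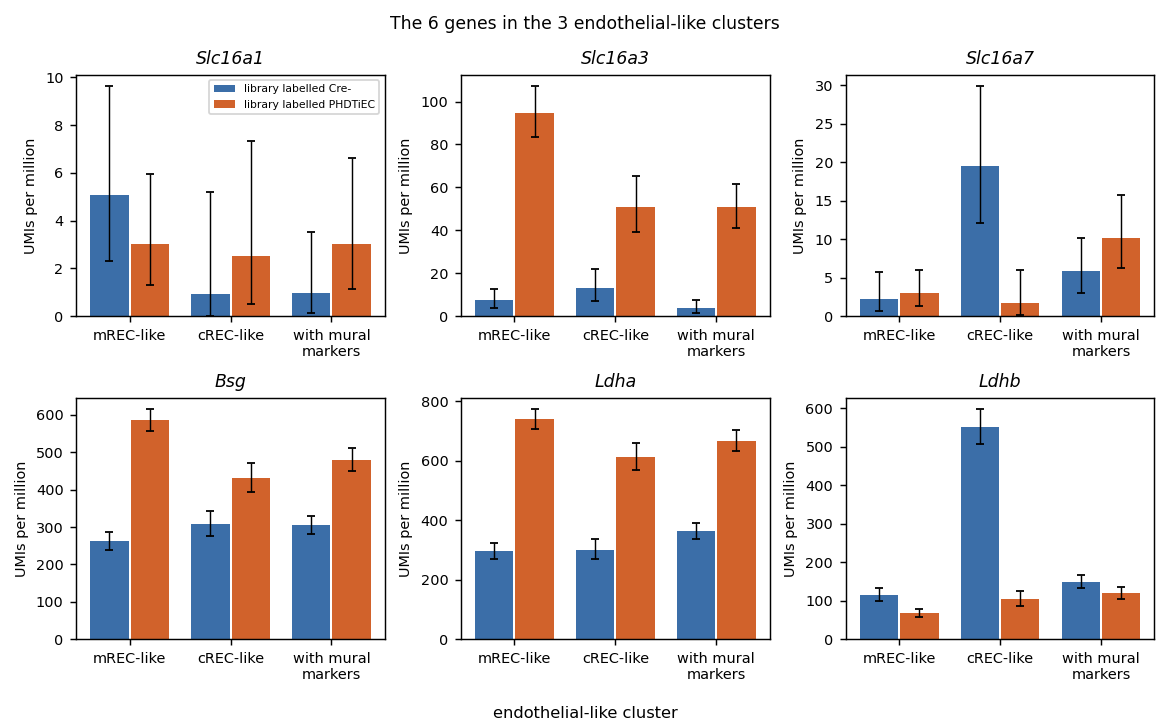
The 6 genes in the 3 endothelial-like clusters, in CPM of the cluster (y axis, from 0), with bars for the Cre- library (blue) and the library labelled PHDTiEC (orange) and exact 95% counting intervals. *Slc16a3*, *Ldha* and *Bsg* are higher in the library labelled PHDTiEC in all 3 clusters, whereas *Ldhb* differs mainly in cREC-like cells, 551 and 104.

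*Ldhb* was lower in endothelial-like cells of the library labelled PHDTiEC, at 224 CPM (211 to 238) and 93.2 CPM (85.5 to 101), a log2 ratio of -1.27 (-1.42 to -1.12), but the size of this difference varied with the way cells were classed. Its level was 115 and 67.8 CPM in mREC-like cells, 551 and 104 CPM in cREC-like cells and 148 and 120 CPM in the cluster with mural markers. In the same order the log2 ratios were -0.76, -2.40 and -0.30, and the last was 0.11 without the cell with most *Ldhb* UMIs in each library and 1.04 at a clustering resolution of 1.2. In cREC-like cells the TAL markers summed to 1398 and 257 CPM and the DCT markers to 464 and 34.3 CPM, and TAL-like and DCT-like cells are among the classes rich in *Ldhb*. In the Cre- library 1 cell held 20.4% of the *Ldhb* UMIs of the cREC-like cells and 1 cell 31.1% of those of the cluster with mural markers. Cells in which over 0.1% of UMIs came from tubular markers numbered 32 of 403 and 43 of 538 and held 36.1% and 32.5% of all endothelial-like *Ldhb* UMIs and 67.6% and 33.3% of those of *Slc16a7*. Without them *Ldhb* stood at 160 and 69.0 CPM, a log2 ratio of -1.21, and *Ldha* at 322 and 697 CPM. Removal of the 8% of barcodes with the highest doublet scores left 93.7 and 69.8 CPM, a log2 ratio of -0.42. At a clustering resolution of 1.2 the ratio was -0.10, as 4 and 14 cells classed here as injured PT-like then joined the endothelial-like cells. Those cells carried 240 and 1009 *Ldhb* UMIs and endothelial markers at 1776 and 1690 CPM, against 37.6 and 26.5 CPM in the other injured PT-like cells. Their tubular markers stood at 2497 and 2385 CPM, and all 4 and all 14 were among the highest 8% of doublet scores.

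The *Ldhb* share of dehydrogenase UMIs in endothelial-like cells was 40.8% (39.0 to 42.7) and 11.9% (10.97 to 12.9). It was 28.0% and 8.39% in mREC-like cells, 64.6% and 14.5% in cREC-like cells and 28.96% and 15.3% in the cluster with mural markers, lower in the library labelled PHDTiEC each time with intervals that do not overlap. In the cluster with mural markers this direction was not stable. At resolution 1.2 its *Ldhb* log2 ratio was 1.04, whereas its *Ldha* log2 ratio was at most 0.93 under any alternative, so the share was not lower there. Without the cells rich in tubular markers the pooled share was 33.2% and 9.01%, and without the highest doublet scores 22.1% and 8.87%. It was 44.7% and 26.4% at resolution 1.2 or with clusters on all variable genes, and 60.9% and 39.1% with classes from marker UMIs alone. Because *Ldha* was also higher, the direction of the pooled share did not depend on *Ldhb* alone. *Slc16a7* in cREC-like cells, with 21 and 2 UMIs, had 20 of the 21 in cells rich in tubular markers.

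Taken over all cells outside the endothelium, *Slc16a3*, *Ldha* and *Bsg* did not show the higher level seen in endothelial-like cells. Over all 8145 and 8771 other cells, *Slc16a3* stood at 17.4 and 14.7 CPM (log2 ratio -0.24, -0.33 to -0.15), *Ldha* at 370 and 368 CPM (-0.01, -0.03 to 0.01), *Bsg* at 366 and 352 CPM (-0.06, -0.08 to -0.04) and *Slc16a7* at 58.4 CPM in both (0.00, -0.05 to 0.05). *Slc16a1* was at 8.05 and 6.93 CPM (-0.22, -0.35 to -0.08). *Ldhb* was at 1419 and 1124 CPM (-0.34, -0.35 to -0.33). The *Ldha* value averages over classes that differed in opposite directions. Of 23 other classes, 7 had *Ldha* intervals above 0 and 6 below 0. Its log2 ratio was 0.26 in DCT-like, 0.21 in IC-like, 0.18 in CD-like and 0.18 in TAL-like cells. It was -0.44 in Gpnmb, Arg1 macrophage-like and -0.27 in fibroblast-like cells. Of 138 pairs of gene and class over the 23 other classes, 123 had at least 10 UMIs, and 5 of these were past 2-fold higher and 4 past 2-fold lower. For all genes the shares of such pairs were 4.1% and 3.21%, so the counts for the 6 genes were close to the background.

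Among the tubular classes, *Ldhb* was lower in the library labelled PHDTiEC in injured PT-like (-0.42), CD-like (-0.37), TAL-like (-0.30), DCT-like (-0.27), IC-like with CD markers (-0.21) and PT-like cells (-0.19), with intervals below 0, and higher in IC-like cells (0.13, 0.08 to 0.18). Ambient *Ldhb* followed the same direction, with 1152 and 989 CPM in barcodes under 100 UMIs. Fibroblast-like cells went the other way, from 290 to 375 CPM (0.37, 0.23 to 0.52), as did pericyte-like cells, from 354 to 547 CPM (0.63, 0.42 to 0.84), where 1 cell held 18.1% of the UMIs in the library labelled PHDTiEC. In fibroblast-like cells 1 cell held 23.1% of them in the Cre- library. These directions were not stable. As a mean over cells the ratio was -0.28 in fibroblast-like and -0.01 in IC-like cells, and with classes from marker UMIs alone it was -0.30 in pericyte-like and -0.16 in IC-like cells. The lower value of PT-like cells was not stable either and ran from -0.44 to 0.001 over the alternatives. That of injured PT-like cells ran from -0.52 to -0.22 and that of CD-like cells from -0.47 to -0.15. TAL-like, DCT-like and IC-like cells with CD markers also stayed below 0. The only *Ldhb* pair past 2-fold was cycling macrophage-like cells, at 109 CPM (98.3 to 122) and 45.5 CPM (38.3 to 53.6). Without cells rich in tubular markers it was at 91.1 and 39.1 CPM. Over the alternatives its log2 ratio ran from -1.61 to -0.55, so it was not past 2-fold under every setting.

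*Slc16a1* was lower in 3 of the 4 classes with the highest mean. In PT-like cells the log2 ratio was -0.50 (-0.70 to -0.30), in injured PT-like cells -0.74 (-1.16 to -0.33) and in fibroblast-like cells -0.86 (-1.51 to -0.21). Cluster 19, the remaining one, had 0.10 (-0.50 to 0.72). The share of PT-like cells with a *Slc16a1* UMI was 50.2% and 38.9% at median depths of 19295.5 and 17467 UMIs, and 8.43% (5.97 to 11.5) and 6.05% (4.27 to 8.28) after thinning, where the intervals overlap. *Slc16a7* was close in DCT-like (0.19), IC-like (0.12) and CD-like cells (0.09) and lower in TAL-like cells (-0.35, -0.48 to -0.21).

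Myeloid *Slc16a3* was not higher in the library labelled PHDTiEC. The log2 ratio was -0.12 (-0.27 to 0.04) in neutrophil-like cells, -0.34 (-0.66 to -0.03) in monocyte-like cells, -0.41 (-0.62 to -0.19) in Gpnmb, Arg1 and -0.40 (-0.67 to -0.13) in Lyz1, Itgax macrophage-like cells. *Ldha* was also lower in the Gpnmb, Arg1 class, at 486 and 358 CPM (-0.44, -0.52 to -0.36). The largest *Slc16a3* ratio outside the endothelium was that of injured PT-like cells, 1.89 (0.79 to 3.15), from 9 and 32 UMIs. Of the 32 UMIs, 16 came from the 14 cells with endothelial and tubular markers and high doublet scores named above, and without the highest doublet scores, or with clusters made on all variable genes, the ratio was -0.03. Among the remaining pairs past 2-fold, *Slc16a3* in DCT-like cells (7 and 22 UMIs) and *Slc16a1* in cluster 11 (5 and 20 UMIs), an unnamed cluster led by *Nkg7* and *Xcl1*, were higher, as was *Ldha* in B-like cells (18 and 32 UMIs) and podocyte-like cells (6 and 30 UMIs). *Slc16a3* was lower in thin limb-like (29 and 12 UMIs), IC-like (24 and 6 UMIs) and pericyte-like cells (11 and 4 UMIs). All 7 rest on few UMIs.

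**Figure D4:**
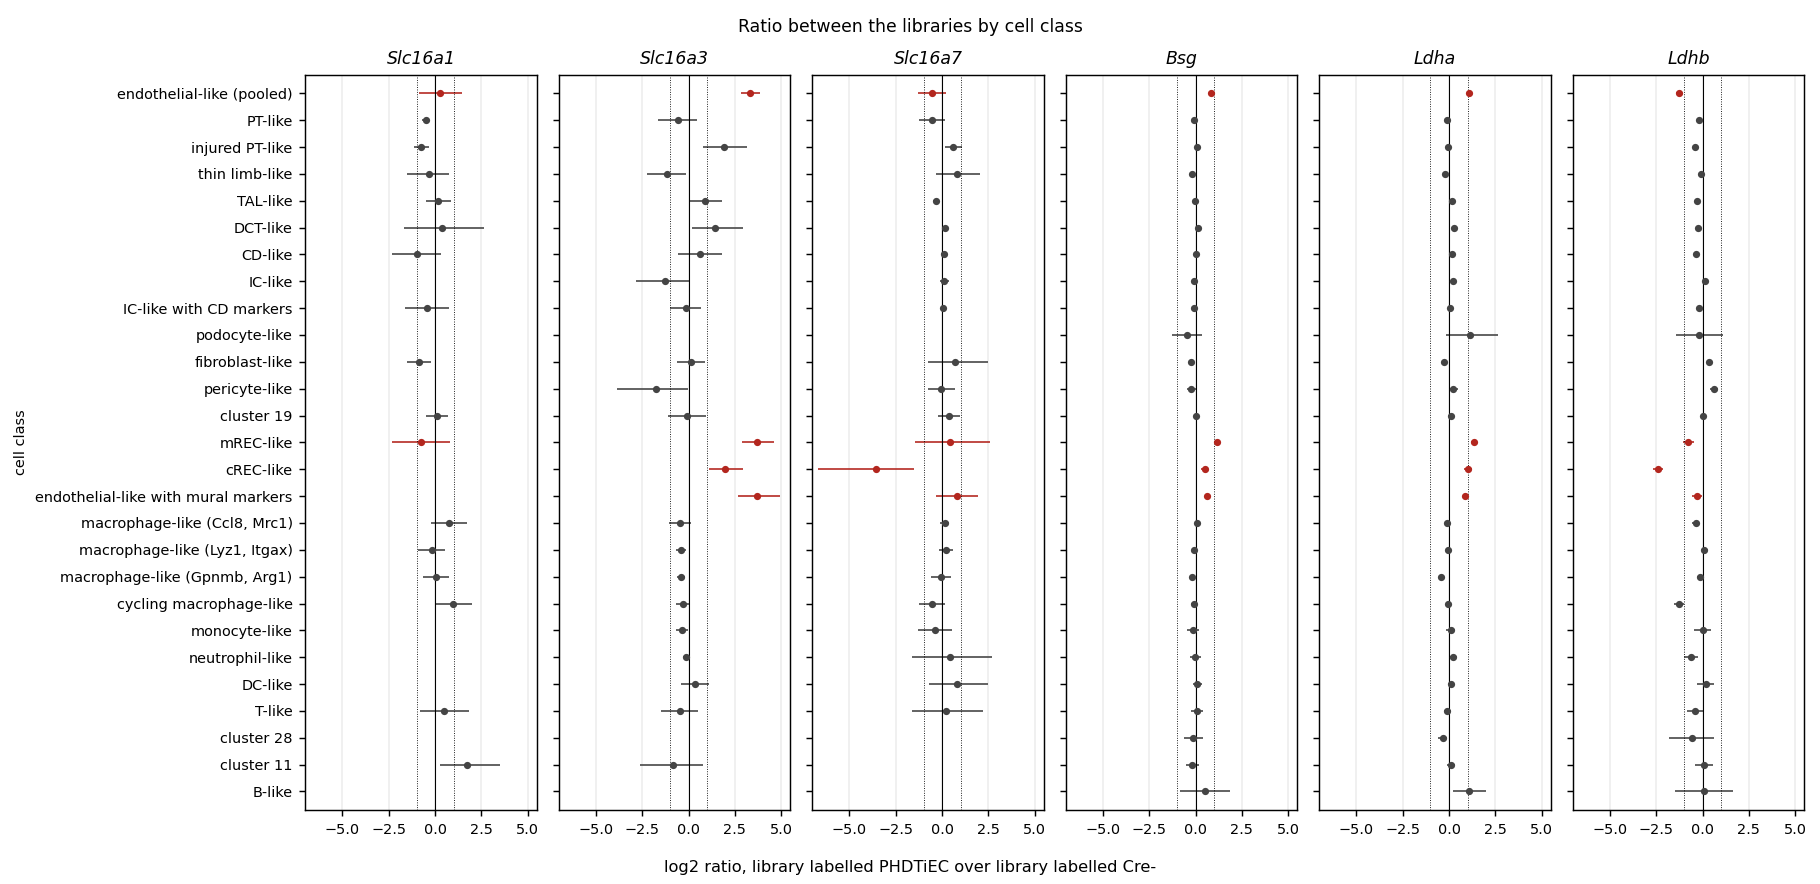
Log2 ratio of the level in the library labelled PHDTiEC over the Cre- library for each gene and class with at least 10 UMIs (x axis, log2), endothelial-like classes in red, with exact 95% counting intervals and dotted lines at 2-fold. For *Slc16a3*, *Ldha* and *Bsg* the endothelial-like classes lie to the right of most other classes, which cluster around 0 where counts are high.

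Among other steps of lactate and pyruvate handling in endothelial-like cells, few genes were past 2-fold. Of 36 further genes of lactate transport and pyruvate use, 29 had at least 10 UMIs, of which 1 was past 2-fold higher (3.05% of all genes) and 3 past 2-fold lower (4.12%), and their median log2 ratio was -0.10 against -0.02 over all genes. The gene that was higher, *Pkm*, encodes the pyruvate kinase of most tissues and stood at 245.8 and 556 CPM (1.18, 1.08 to 1.27). The 3 that were lower rest on few UMIs: *Pck1*, the cytosolic enzyme that starts gluconeogenesis (24 and 3), *Ldhd*, the D-lactate dehydrogenase (23 and 5), and *Pdk4*, a pyruvate dehydrogenase kinase (15 and 5). In the Cre- library 1 cell held 66.7% of the *Pck1* UMIs and 1 cell 26.1% of those of *Ldhd*. There the 3 genes stood at 4.89, 4.69 and 3.06 CPM, against 17.2, 20.3 and 12.8 CPM in barcodes under 100 UMIs. Entry of pyruvate into mitochondria is carried by *Mpc1* and *Mpc2*, which were at 150 and 121 CPM (-0.31, -0.46 to -0.16) and 187 and 136 CPM (-0.46, -0.60 to -0.32). By cluster *Mpc1* was at -0.51 in mREC-like, -0.59 in cREC-like and 0.13 (-0.10 to 0.37) in cells with mural markers. In the same order *Mpc2* was at -0.28, -0.88 and -0.21 (-0.44 to 0.02). PT-like cells held more of both, 507 and 459 CPM and 967 and 1006 CPM. So did barcodes under 100 UMIs, with 253 and 247 CPM and 452 and 419 CPM. The part of tubular RNA in these differences was not tested. *Pdk1*, a kinase that switches pyruvate dehydrogenase off and a HIF target, was at 25.7 and 39.3 CPM (0.61, 0.29 to 0.94). *Emb*, the chaperone of MCT2, was at 20.8 and 20.3 CPM. In mREC-like cells 21 of the 36 genes had enough UMIs, with 2 higher (4.54% of all genes) and 0 lower (3.7%), and in cREC-like cells 18, with 1 higher (4.37%) and 1 lower (8.1%). In the cluster with mural markers 21 had enough, with 2 higher (4.01%) and 3 lower (4.38%).

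Of the 14 glycolysis genes upstream of lactate, 10 were past 2-fold higher in pooled endothelial-like cells (3.05% of all genes) and 0 lower (4.12%), with a median log2 ratio of 1.36 against -0.02 over all genes. *Hk1*, *Gpi1*, *Aldoa* and *Pgam1* did not reach 2-fold. The glucose transporter gene *Slc2a1* was at 16.1 and 74.0 CPM and *Pgk1* at 106 and 354 CPM. The 10 include *Eno1b*, counted with 3 and 21 UMIs. By cluster, 11 of 14 were past 2-fold higher in mREC-like cells (4.54%). The count was 6 of 13 in cREC-like cells (4.37%) and 6 of 13 with mural markers (4.01%). The study had already reported *Slc2a1*, *Gpi1*, *Pfkl*, *Aldoa*, *Tpi1*, *Pgk1* and *Eno1* as higher in mRECs of these libraries. These counts are therefore not independent of that report.

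Several, but not all, of the other genes of lactate uptake and use had high levels in PT-like cells, beside *Slc16a1*. *Slc5a12*, which encodes a sodium-coupled lactate carrier, was at 273 and 280 CPM there against 27.5 and 32.2 CPM over all cells outside the endothelium. *Slc5a8*, the second such carrier, was at 31.7 and 13.4 CPM in PT-like and 23.1 and 24.9 CPM in thin limb-like cells. Which of these classes was higher thus differed between the libraries. Enzymes that turn lactate carbon into glucose were highest in PT-like cells, with the exception of *Pck2*. *Fbp1* was at 516 and 513 CPM and *Pck1* at 97.3 and 108 CPM. *G6pc* was at 82.6 and 92.0 CPM and *Pcx* at 76.2 and 65.8 CPM. *Pck2* was at only 13.94 and 12.97 CPM in PT-like cells. It stood at 23.67 and 21.94 CPM over all cells outside the endothelium and at 33.02 and 36.68 CPM in endothelial-like cells. Of these *Slc5a8* alone was past 2-fold between the libraries in PT-like cells, from 330 and 176 UMIs, and 1 cell held 97 of the 330. Without the cell with most UMIs in each library it was at 22.6 and 12.3 CPM, under 2-fold.

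The genes most alike to each member over 23 named classes, by Pearson's r of the log2 CPM averaged over both libraries among 13057 genes, differed from gene to gene. *Slc16a3* was followed by *Csf2rb* (r = 0.905), *Sh2b2* (0.905) and *Clec4e* (0.900). *Slc16a1* was followed by *Ahcy* (0.810), *Ass1* (0.807) and *Spp2* (0.780), and *Slc16a7* by *Gm21154* (0.859), *Tmco4* (0.855) and *Cldn9* (0.854). *Bsg* was followed by *Ift46* (0.952), *Smpd1* (0.949) and *Itfg1* (0.947), *Ldha* by *Gapdh* (0.843), *C2cd2l* (0.818) and *Phospho2* (0.809), and *Ldhb* by *Cdh16* (0.964), *Kif21a* (0.963) and *Dsg2* (0.960). Among the 6 genes themselves the highest r was that of *Bsg* and *Ldhb* (0.772) and the lowest that of *Slc16a3* and *Ldhb* (-0.568). The classes share the 2 libraries and differ in depth, so these values describe likeness of profile only.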

How the data were processed

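Single-cell RNA sequencing of 2 mouse kidneys, 1 per genotype, was analysed. The authors deposited raw counts, that is UMIs per gene and barcode, made with Cell Ranger (version 4 per the file headers) on mm10; the gene and barcode lists hold names only. All barcodes were deposited, and the cells were filtered anew as given in the text. The members, gene lists and tests were chosen with earlier results of these data known.

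Clusters were made with Seurat 5.3.0 in R 4.3.3 on 1977 variable genes, after 23 of 2000 (members and listed genes) had been left out, with 20 principal components and resolution 0.8, and named from marker lists. Automatic doublet thresholds (Scrublet in scanpy 1.11.5) marked 2 and 1 barcodes (0.0234% and 0.0107%), so the caller had not worked and doublets were kept; an alternative removed the highest 8% of scores, 684 and 745 barcodes. Summing, thinning and intervals used Python 3.11.15, numpy 2.4.6 and scipy 1.17.1: exact Poisson for CPM, Clopper-Pearson for shares, and Clopper-Pearson on the split of the counts for log2 ratios. A gene needed 10 UMIs over both libraries for a ratio to be counted, and 2-fold was a rule of size. edgeR 4.0.16 gave TMM factors for 1 alternative. The counting was tested on simulated data. A count of 0 allowed up to 3 counts.

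Named genes were the members, the floxed genes, the lactate and pyruvate list, and for each member the 3 genes most alike in log2(CPM + 1) among genes with at least 500 UMIs. *Slc2a1* and *Pgk1*, of the glycolysis list, were named after their values had been seen. Gene positions are those of GRCm38.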

Additional observations from a re-analysis of the deposited data

Results flagged for a closer look

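For both *Slc16a3* and *Bsg* the libraries differed in opposite directions inside and outside the endothelium, with counting intervals on either side of 0. *Slc16a3* had a log2 ratio (PHDTiEC over Cre-) of 3.31 in pooled endothelial-like cells and -0.24 over all other cells. *Bsg* had 0.83 and -0.057. With 1 library per genotype the difference was not tested.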

How the results depend on the processing

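No paired analysis was possible because each genotype had 1 library, and leaving a library out left no comparison. Of 170 values that answer a comparison, 120 stayed the same, 50 moved, and 0 of the ratios past 2-fold changed direction. Ratios and shares were called the same within their counting interval. Counts and percentages past 2-fold were called the same within a fixed factor of the main value. Log2 ratios in endothelial-like cells ranged from 2.68 to 3.74 for *Slc16a3*, 0.86 to 1.23 for *Ldha*, 0.63 to 0.94 for *Bsg* and -1.98 to -0.10 for *Ldhb*; the causes of these shifts were not tested.

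With classes from marker UMIs alone the ratios were 2.68 for *Slc16a3*, 0.43 for *Slc16a7*, 0.63 for *Bsg*, 0.86 for *Ldha* and -0.41 for *Ldhb*, the *Ldhb* share was 60.9% and 39.1%, and 1 member was higher and 0 lower past 2-fold. Without the highest 8% of doublet scores *Bsg* was at 0.93 and *Ldhb* at -0.42, the share at 22.1% and 8.87%, 0 members were lower, and 2 pairs outside the endothelium were higher. Clusters on all variable genes and resolution 1.2 each gave *Ldhb* -0.10, shares of 44.7% and 26.4%, and 0 lower. The mean over cells gave *Bsg* 0.73, *Ldhb* -0.77, shares of 36.0% and 13.2%, 0 lower, and 8 lower pairs outside. Subtracting the ambient profile gave *Ldhb* -1.98, shares of 35.9% and 6.14%, 2 lower, and 8 higher pairs outside. Without the cell with most UMIs the Cre- share was 38.5% and 8 pairs outside were higher. With no count minimum 9 pairs outside were higher and 8 lower, and 11.2% and 12.2% of all genes were past 2-fold higher and lower.

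Chosen after seeing the data, leaving out cells rich in tubular markers gave *Slc16a7* 0.47 and shares of 33.2% and 9.01%, and leaving out the cluster with mural markers gave *Slc16a7* -1.75, *Bsg* 0.94, *Ldha* 1.23, *Ldhb* -1.82, shares of 48.4% and 10.2%, and 2 lower. Of 145 log2 ratios, 55 changed sign under at least 1 alternative. Among 1893 further values, 3 changed the direction of a ratio past 2-fold: *Ldha* in B-like cells to -0.10 with marker UMIs alone, and *Slc16a3* in injured PT-like cells to -0.034 without the highest doublet scores and -0.033 with all variable genes.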
